A study of Mus musculus with 4 samples.

Results

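The genes for 7 receptor chains grouped under the IL-6 and IL-12 cytokine families, Il6ra, Il6st, Il12rb1, Il12rb2, Il23r, Il27ra and Il21r, were followed in open chromatin of mouse CD4+ T cells. They were taken by name, and Il21r was grouped with the others although it pairs with the common gamma chain Il2rg. Peaks inside the RefSeq record of each gene on mm10, or within 20 kb on either side of it, were taken from the 4 peak lists and merged wherever they shared a base. This gave 101 regions out of 93679 in the genome, and 64 of the 101 were called in all 4 libraries.

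The study asked how IL-4 acts on chromatin while naive CD4+ T cells become induced regulatory T cells (Tregs, iTreg when induced in culture). Splenic naive cells, which are high in CD62L, low in CD44 and CD25-, came from male wild-type C57BL/6 mice aged 7 weeks. They were activated for 48 h by antibodies, anti-CD3 bound to the plate at 5 µg/ml and anti-CD28 in solution at 1 µg/ml, together with human TGF-β1 at 5 ng/ml and mouse IL-2 at 10 ng/ml. All libraries share these agents. The iTreg+IL-4 cells also received 15 ng/ml of mouse IL-4 and the iTreg+PBS cells received none, with 2 libraries of each, which the study describes as independent pooled samples. Bulk cultures were assayed, so a change within each cell and a change in the mixture of cells cannot be told apart.

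These receptors work as pairs. Il6st (gp130) signals for IL-6 once Il6ra has bound that cytokine, and for IL-27 together with Il27ra. Il12rb1 pairs with Il12rb2 for IL-12, the cytokine of Th1 cells, and with Il23r for IL-23, which maintains Th17 cells, while Il21r pairs with the common gamma chain Il2rg. The chains carry no kinase of their own and signal through Jak1, Jak2 and Tyk2 to STAT proteins, among them Stat3 and Stat4. In activated T cells IL-6 with TGF-β directs cells to the Th17 fate in place of the Treg fate.

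ATAC-seq marks DNA that a transposase can reach. Each deposited list gives the position of a peak, the −log10 of its q-value and its height in overlapping fragments. Because neither value is scaled between libraries, a peak is described by its percent rank, the percent of peaks in the same list with a higher −log10 q, so that a small percent is a strong peak. List lengths ran from 56645 peaks in iTreg+PBS replicate 2 through 67743 in iTreg+IL-4 replicate 2 to 77064 and 78670 in iTreg+PBS and iTreg+IL-4 replicate 1, so the lists numbered 2 are the shorter of each condition. Sequencing depth is unknown from the lists. Among all protein-coding genes 58.2% had a promoter peak in all 4 libraries. Such a peak was found at 7 of 8 T cell genes, with Trac, a constant segment, at none, and at 0 of 2 NK cell and 0 of 2 erythroid genes. Of the B cell genes, Ms4a1 had a promoter peak in 3 libraries, Pax5 in 1 and Cd79a in none. Of the genes of other cells, 1 of 4 myeloid, 1 of 2 epithelial and 1 of 2 CD8 T cell genes (Cd8b1, with Cd8a called in 2 libraries) had one, and the NK cell genes Ncr1 and Klrb1c had no promoter peak in any library.

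The values turn on 5 distal regions of these loci, which are shown first. Each is a window of 200 bases around the centre of a merged region in GRCm38, read 5′ to 3′ on the strand of the named gene. Capitals mark matches on either strand to the motifs searched, here only the RUNX motif TGTGGT, which Runx transcription factors bind. The elements of Il21r and Il12rb2 are the strongest distal regions of the 7 loci, both regions of Il23r are those that ranked lowest with IL-4 relative to PBS, and the last was called only with IL-4.
Il21r upstream element, chr7:125588752-125588951, forward strand: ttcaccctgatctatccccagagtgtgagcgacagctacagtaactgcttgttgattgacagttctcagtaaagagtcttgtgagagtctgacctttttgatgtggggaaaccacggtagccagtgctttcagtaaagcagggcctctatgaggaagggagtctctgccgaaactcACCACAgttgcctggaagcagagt
Il12rb2 intron 7 element, chr6:67348049-67348248, reverse strand: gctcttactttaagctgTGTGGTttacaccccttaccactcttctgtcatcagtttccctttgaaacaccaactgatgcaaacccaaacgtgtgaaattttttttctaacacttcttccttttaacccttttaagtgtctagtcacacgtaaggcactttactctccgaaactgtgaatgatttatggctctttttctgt
Il23r intron 10 region, chr6:67424962-67425161, reverse strand: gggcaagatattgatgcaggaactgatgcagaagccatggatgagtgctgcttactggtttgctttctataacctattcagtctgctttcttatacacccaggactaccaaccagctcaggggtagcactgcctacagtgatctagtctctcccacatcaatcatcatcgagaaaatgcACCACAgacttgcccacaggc
Il23r intron 4 region, chr6:67475628-67475827, reverse strand: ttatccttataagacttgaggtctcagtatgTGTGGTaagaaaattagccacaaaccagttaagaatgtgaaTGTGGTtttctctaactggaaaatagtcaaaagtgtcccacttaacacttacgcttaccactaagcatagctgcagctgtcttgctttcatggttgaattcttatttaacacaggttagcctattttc
Region downstream of Il6st, chr13:112517298-112517497, forward strand: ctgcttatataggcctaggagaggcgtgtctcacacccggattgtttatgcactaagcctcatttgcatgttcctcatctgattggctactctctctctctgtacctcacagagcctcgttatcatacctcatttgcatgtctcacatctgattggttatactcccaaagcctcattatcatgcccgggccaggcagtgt
The RUNX motif occurred at 1 place in each of the first 3, at 2 places in the Il23r intron 4 region, and not in the window downstream of Il6st. It was found in 22 of the 101 windows (21.8%) and in 21.4% of the windows of all regions.

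Of the 7 genes, 6 had a peak at their promoter in all 4 libraries, and Il23r had one in none. A promoter was taken as 1 kb before to 0.5 kb after a RefSeq start site. Among 21774 protein-coding genes 58.2% had a promoter peak in all 4 libraries. The share of all promoters with such a peak followed their CpG content, which is a property of the sequence that the choice of genes did not use. In the RefSeq promoter table (32851 promoters of 300 bases, GRCm38.p6), 4.85% of promoters with 0 to 4 CpG had a peak in all 4 libraries, against 18.3% of those with 5 to 9 and 77.0% of those with 10 or more. Of the members 5 of 7 matched that table, all but Il12rb1 and Il27ra. Il6st had 33 CpG, Il6ra 25, Il12rb2 12, Il21r 7 and Il23r 2, with a GC content of 68.3%, 66%, 53.0%, 56.0% and 43.0%. Il21r falls in the class where 18.3% had a peak in all 4 libraries, and it had one. The 250 bases before the start site of Il6st, the strongest promoter, and of Il23r, the one without a peak, show the contrast, with each CpG in capitals.
Il6st promoter, chr13:112463820-112464069, forward strand: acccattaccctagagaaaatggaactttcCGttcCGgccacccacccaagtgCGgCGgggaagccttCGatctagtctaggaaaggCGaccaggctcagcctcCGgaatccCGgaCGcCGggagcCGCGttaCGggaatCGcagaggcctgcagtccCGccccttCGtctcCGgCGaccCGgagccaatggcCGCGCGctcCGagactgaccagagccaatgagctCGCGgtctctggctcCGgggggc
Il23r promoter, chr6:67491856-67492105, reverse strand: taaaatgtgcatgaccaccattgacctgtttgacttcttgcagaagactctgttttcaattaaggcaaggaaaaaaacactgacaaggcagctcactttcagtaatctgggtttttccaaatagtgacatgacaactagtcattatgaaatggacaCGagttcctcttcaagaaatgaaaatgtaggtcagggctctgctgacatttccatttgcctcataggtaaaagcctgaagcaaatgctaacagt
These stretches hold 26 CpG and 1 CpG.

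Il6st, the signalling chain shared by IL-6, IL-27 and other cytokines, had the strongest promoter of the 7 in every library. Its peak (chr13:112463620-112464479) stood at 7.88% and 8.53% in iTreg+PBS replicates 1 and 2 and at 7.51% and 6.75% in iTreg+IL-4 replicates 1 and 2. The promoter of Il27ra (chr8:84041853-84043093), the IL-27 binding chain, stood at 14.5% and 15.8% without IL-4 and at 13.4% and 14.0% with it. At both genes the IL-4 libraries ranked slightly above the PBS libraries without overlap in percent, but their rank scores, which are ranks among the regions shared by all libraries (defined with the test of single regions), overlapped. The ranges of the 2 genes do not meet.

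The other 4 promoters ranked lower and their ranges overlap. Their order changed between libraries, except that Il21r and Il6ra ranked above Il12rb1 in all 4. The promoter peak of Il21r (chr7:125603006-125603650), the IL-21 binding chain, stood at 18.0% and 21% with PBS and at 20.5% and 23.4% with IL-4. That of Il6ra (chr3:89912273-89913517), which binds IL-6, stood at 20.6% and 25.1% with PBS and at 20.5% and 22.8% with IL-4. That of Il12rb2 (chr6:67375278-67376389), the chain specific to IL-12, stood at 18.3% and 29.9% with PBS and at 20.4% and 28.4% with IL-4. In each of these the replicates of a condition differed by more than the mean of the conditions did. The rank scores of Il21r did not overlap (−0.19 ± 0.13 with IL-4 relative to PBS, SE, limma adjusted p = 1.000). The promoter peak of Il12rb1 (chr8:70808218-70808681), the chain shared by the receptors of IL-12 and IL-23, stood at 21.2% and 38.0% with PBS and at 22.1% and 25.8% with IL-4, and iTreg+PBS replicate 2 was the weakest.

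RefSeq start sites inside 2 genes had weaker peaks. At the start of a shorter Il12rb2 transcript in intron 7 (chr6:67339556-67339845) the peak stood at 48.4% and 61.2% without IL-4 and at 49.2% in iTreg+IL-4 replicate 1, and it was not called in iTreg+IL-4 replicate 2. Near a predicted start in intron 1 of Il21r one region stood at 72.2%, 89.2% and 73.3% and was again absent only from iTreg+IL-4 replicate 2. Another was called only in iTreg+PBS replicate 1, at 97.1%. The GENCODE M21 annotation also has start sites inside Il6st with a peak in all 4 libraries (chr13:112472599, chr13:112475008 and chr13:112475046).

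Promoters of other cytokine receptors gave a scale for these levels. Of 36 other receptors, 27 had a promoter peak in all 4 libraries, 2 in some and 7 in none. By the mean absolute difference in percent rank over the 4 libraries, the nearest of the 27 to Il6st was Il2ra, the high-affinity IL-2 receptor chain that marks Tregs and activated T cells, at 1.10 percentage points. Il18rap was nearest to both Il6ra (1.67) and Il12rb2 (1.68), Il17ra to Il27ra (1.37), Il15ra to Il21r (1.70) and Il20ra to Il12rb1 (1.74). These points share their libraries and describe a like rank only.

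**Figure D1:**
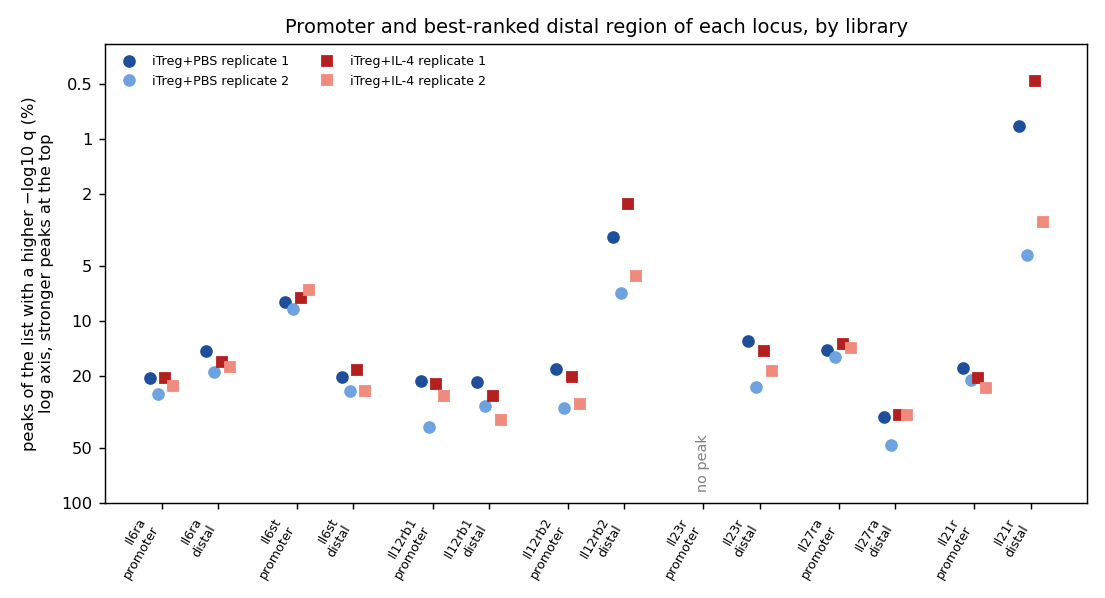
Percent of peaks of the same list with a higher −log10 q (log axis, strong peaks at the top) for the promoter and for the best-ranked distal region of each locus. Circles are the 2 iTreg+PBS libraries and squares the 2 iTreg+IL-4 libraries. The distal regions of Il21r (0.478% to 4.33%) and Il12rb2 (2.27% to 7.00%) stand above all promoters of the set within each library, and Il23r has no promoter peak.

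Away from promoters, the loci of Il21r and Il12rb2 held the strongest regions. The Il21r element (chr7:125588478-125589226) lies 14.6 kb upstream of its start, outside any gene, and 9.38 kb from Il4ra, the gene of the IL-4 receptor chain and the nearest other coding gene. It stood at 0.843% and 4.33% without IL-4 and at 0.478% and 2.85% with IL-4, with heights of 886 and 297, and 896 and 550 fragments. The Il12rb2 element (chr6:67347722-67348576) in intron 7 stood at 3.45% and 7.00% without IL-4 and at 2.27% and 5.63% with IL-4, with heights of 526 and 202, and 531 and 338. Both were stronger in the replicates numbered 1 of either condition, so the conditions overlap, and both ranked above their own promoter in every library. Of the 40 distal regions called in all 4 libraries at the 6 genes with a promoter peak, 7 ranked above that promoter in every library: 3 at Il21r, 2 at Il12rb2, 2 at Il6ra, and 0 at Il6st, Il12rb1 and Il27ra.

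The other 2 such regions of Il21r lay 9.34 kb upstream (15.3%, 19.8%, 14.3% and 20.4% in the order iTreg+PBS 1 and 2, iTreg+IL-4 1 and 2) and in intron 1 (chr7:125607293-125608147; 14.8%, 19.4%, 11.2% and 14.6%). In Il12rb2 the other lay in intron 1 (chr6:67366944-67368360; 14.6%, 20.1%, 14.2% and 18.8%). In Il6ra they lay in intron 6 (chr3:89880019-89880737; 15.4%, 23.4%, 12.8% and 22.5%) and downstream (chr3:89863805-89864534; 14.6%, 19.0%, 16.8% and 17.8%), 5.32 kb from the gene She. The conditions overlap in percent rank in each of them but intron 1 of Il21r, where both IL-4 libraries ranked above both PBS libraries.

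Il23r, although it lacked a promoter peak, had 12 distal regions, 9 of them called in all 4 libraries. The strongest lay downstream of the gene (chr6:67415103-67415795; 12.8%, 23.0%, 14.6% and 18.7% in the same order) and in intron 6 (chr6:67459280-67459736; 14.8%, 34.6%, 15.5% and 24.2%). Both were weakest in iTreg+PBS replicate 2. Il6st had its best distal region 16.7 kb upstream (chr13:112447065-112447632; 20.3%, 24.3%, 18.5% and 24.2%), where the window held 2 matches to TTCNNNGAA, a STAT-like motif, and 1 to TGANTCA, the AP-1 motif.
Il6st upstream region, chr13:112447249-112447448, forward strand: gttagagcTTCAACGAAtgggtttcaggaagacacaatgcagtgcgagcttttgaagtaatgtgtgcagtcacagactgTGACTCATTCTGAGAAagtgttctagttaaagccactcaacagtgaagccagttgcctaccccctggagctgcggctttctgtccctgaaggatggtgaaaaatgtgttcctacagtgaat
Capitals mark these 3 matches, of which the AP-1 match and the second STAT-like match lie side by side in 1 run of capitals. Both motifs read the same on either strand. TTCNNNGAA was found in 10.9% of the 101 windows and 8.47% of all windows, and TGANTCA in 11.9% and 12.9%.

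The second distal region of Il6st, just past the end of the gene, stood at 30.5%, 31.2%, 30.1% and 28.4%. At Il12rb1 and Il27ra, the shortest of the 7 genes, 4 of 11 and 3 of 8 regions lay at the promoter of another gene. Those beside Il27ra ranked below its own promoter in every library that called them. The strongest region of all 7 loci was the promoter of Arrdc2 beside Il12rb1 (0.326%, 0.485%, 0.239% and 0.214%), followed by that of Serbp1 beside Il12rb2 (0.415%, 0.782%, 0.337% and 0.493%). The best distal regions were weaker, downstream at 21.7%, 29.4%, 25.8% and 35.1% (chr8:70832860-70833717) and upstream within Mast3 at 23.4%, 33.5%, 22.2% and 35.5% for Il12rb1, and at 33.6%, 48.2%, 32.7% and 32.9% inside Palm3 and 50.6%, 77.2%, 41.5% and 55.0% upstream for Il27ra.

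**Figure D2:**
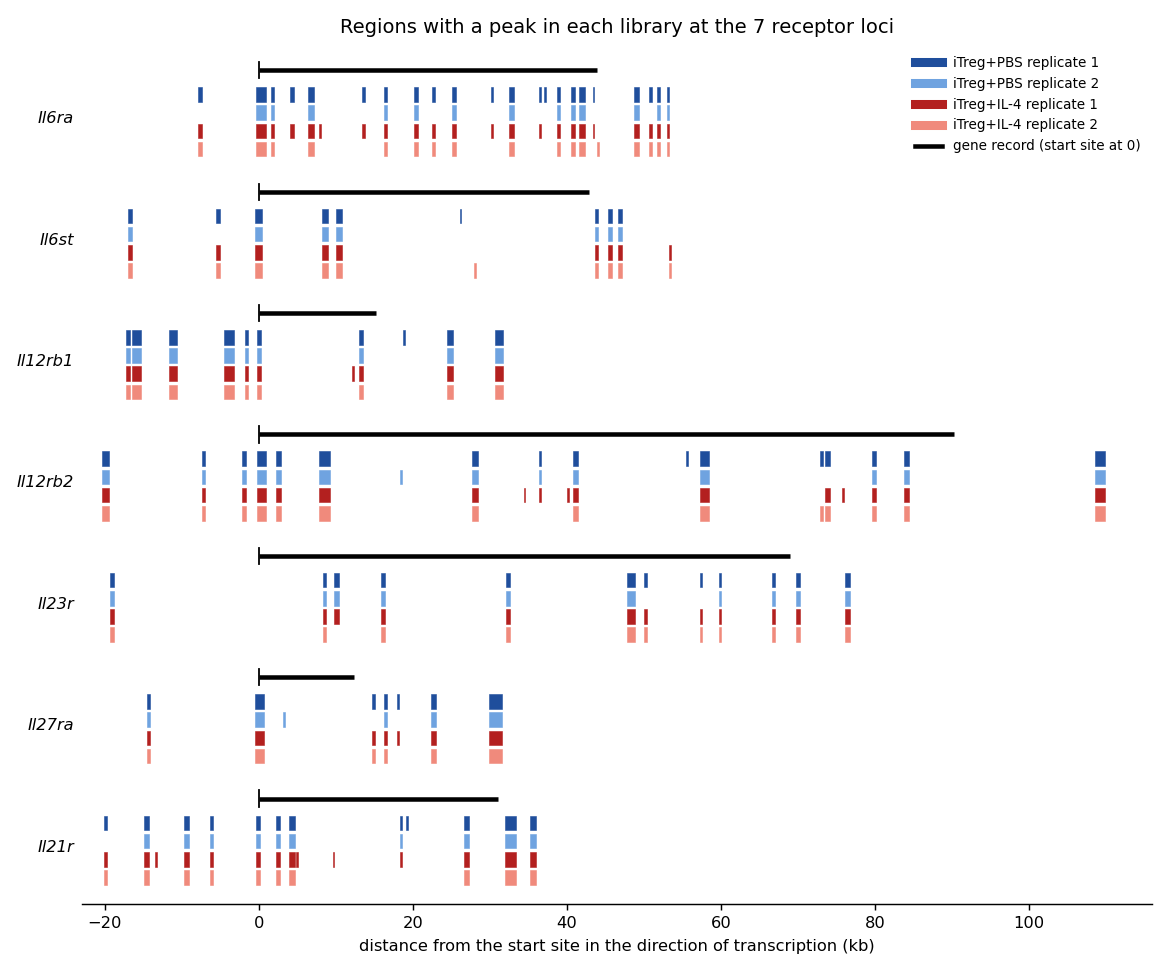
Merged regions with a peak, drawn to scale against the distance from the start site of each gene in the direction of transcription (kb), with 1 row per library and the gene record as a black bar. A block in a row means that the region was called in that library. Il23r has no block at 0, and Il6ra has the most blocks, 24 regions, of which 11 are missing from at least 1 library.

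Regions found in all 4 libraries made up 63.4% of the 101 regions, against 51.0% of all 93679. Per 100 kb of locus there were 16.3 such regions at Il12rb1, 15.5 at Il6ra, 12.7 at Il21r, 9.56 at Il27ra, 9.21 at Il12rb2, 8.46 at Il6st and 8.26 at Il23r, where the median protein-coding gene with the same flanks had 3.58. From 82.3% of coding genes, for Il23r, to 98.7%, for Il12rb1, had fewer. These densities include promoters of other genes, which were 4 of the 9 shared regions at Il12rb1, 2 of 5 at Il27ra, 2 of 13 at Il6ra and 1 of 12 at Il12rb2. Of the 101 regions 9 were promoters of the members, 12 promoters of other genes and 80 distal, and of these 6, 9 and 49 were called in all 4 libraries.

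The other regions were missing from 1 or more lists, and 1 of them divided the libraries by IL-4. There were 12 regions called in 3 libraries, 8 in 2 and 17 in 1. Of these, 9 were missing only from iTreg+PBS replicate 2 and 3 only from iTreg+IL-4 replicate 2, and 6 were called only in the replicates numbered 1, with 5 of the 6 at Il6ra. Of the single-library regions 8 belonged to iTreg+IL-4 replicate 1, 5 to iTreg+PBS replicate 1 and 2 to each of the others.

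The number and extent of peaks at these loci did not differ between conditions by more than the spread between replicates. The loci held 90 and 71 peaks in iTreg+PBS and 94 and 79 in iTreg+IL-4, a mean of 80.50 ± 13.4 (SD, n = 2) against 86.50 ± 10.6 (SD, n = 2). The difference of 6 peaks had p = 0.667 in a two-sided exact permutation test over libraries, in which 2 against 2 cannot go below 0.333. The bases inside peaks came to 46757 and 33187 with PBS, and to 47971 and 40377 with IL-4 (39972 ± 9595 against 44174 ± 5370, SD, n = 2, exact permutation p = 0.667). As a share of the peaks in the list the loci held 0.117%, 0.125%, 0.119% and 0.117%, and the counts moved with the length of the lists. Without iTreg+PBS replicate 2 the difference was −3.5 peaks and −2583 bases, and without iTreg+IL-4 replicate 1 it was −1.5 peaks and 405 bases. Within the gene records alone it was 1 peak and 2554 bases.

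**Figure D3:**
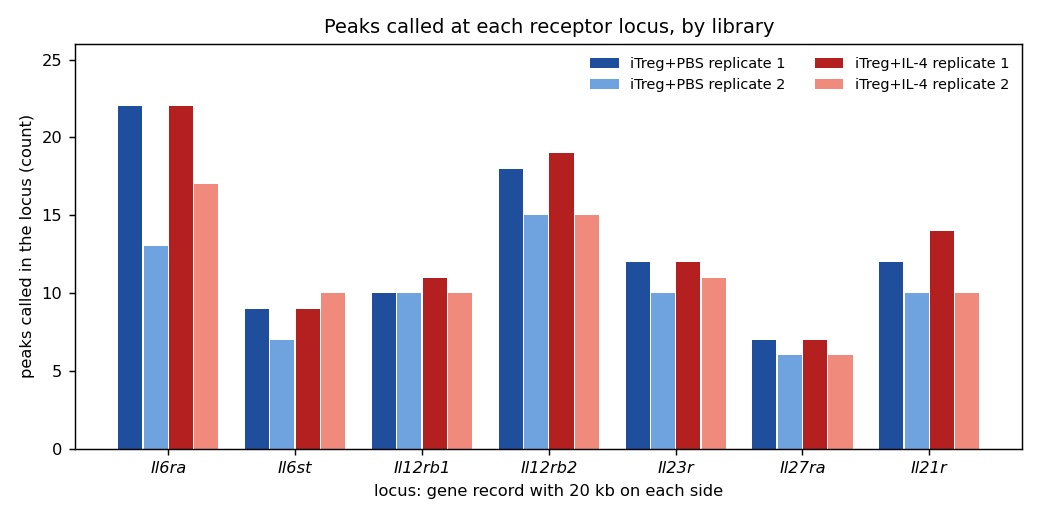
Number of peaks called in each locus, the gene record with 20 kb on each side, with 1 bar per library. Blue bars are iTreg+PBS and red bars iTreg+IL-4, dark for replicate 1 and light for replicate 2, and the dark bars reach at least the light bar of the same condition everywhere but in Il6st with IL-4.

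The median percent rank of the 64 regions called in all 4 libraries was 26.8% and 41.1% without IL-4 and 26.2% and 33.3% with it, a difference of −4.22 percentage points (exact permutation p = 0.667). All 47767 shared regions of the genome gave 31.3%, 42.5%, 30.7% and 35.5%, with the same weak library. At the 6 promoters the medians were 18.1%, 23.0%, 20.5% and 23.1% (a difference of 1.21, exact permutation p = 0.667). At the 49 distal regions they were 30.7%, 45.6%, 34.8% and 37.5% (a difference of −1.99, exact permutation p = 1.00). At the 9 promoters of other genes they were 8.92%, 11.5%, 6.51% and 8.16%, and the conditions did not overlap there (a difference of −2.86, exact permutation p = 0.333, the smallest the design allows). Without iTreg+PBS replicate 2 the difference turned to 4.10, over the regions called in all the remaining libraries and not over the 64. With all libraries it was −0.788 when regions were ranked only among those called in all 4, and −1.92 by height. It was −1.76 with a reciprocal overlap of 50% and −1.48 without the flanks, settings that also change which regions are counted.

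For single regions, the ranks among shared regions were turned into rank scores, normal scores in which a higher value is a stronger peak and 1 unit is 1 SD of all shared regions, and compared with limma over all 47767. None passed an adjusted p of 0.05 in either direction (0% of shared regions), and 1791 (3.75%) had an unadjusted p under 0.05. At the 7 loci 0 of 64 passed and 2 had an unadjusted p under 0.05. The count that passed was also 0 with the replicate number as a block (3694 at an unadjusted p under 0.05) and with heights in place of −log10 q (1758). With score differences rounded to 2 decimals, 32 of the 64 regions had a higher score with IL-4, 29 a lower one and 3 a difference of 0.00 (slightly higher before rounding), with a median of 0.01, and the median of all shared regions was 0.00. Both IL-4 scores lay above both PBS scores in 14 of the 64 and below them in 8, where 14.4% and 12.7% of all shared regions did so.

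Il23r held the region that ranked lowest with IL-4 relative to PBS. The region in intron 10 (chr6:67424882-67425241), 66.8 kb from the start, stood at 39.9% and 48.5% in iTreg+PBS and at 62.4% and 79.9% in iTreg+IL-4, with heights of 55 and 26, and 31 and 19 fragments. Both IL-4 libraries ranked below both PBS libraries. The rank score differed by −1.08 ± 0.19 (SE, n = 2 per condition), with an adjusted p of 1.000 in limma (0.640 with the replicate block), and lay between −1.25 and −0.83 when any library was left out. Of its window, 70.5% is masked as repeats in the RefSeq genome, which holds for over 50% of the window in 11.9% of the 101 regions and 12.7% of all regions.

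The next lowest score difference, in intron 4 of Il23r (chr6:67475509-67475946), did not separate the conditions. It stood at 28.2% and 78.0% with PBS and at 56.7% and 80.3% with IL-4 (−0.73 ± 0.51, SE, limma adjusted p = 1.000), and iTreg+PBS replicate 2 lay between the IL-4 libraries. Without iTreg+PBS replicate 1 the difference was −0.09, and without iTreg+IL-4 replicate 2 it was −0.39. It was −1.26 without iTreg+PBS replicate 2 and −1.01 without iTreg+IL-4 replicate 1. The third was the region downstream of Il12rb1 given above (−0.28 ± 0.14, SE). Over the 9 shared regions of Il23r, 4 had a higher score with IL-4 and 5 a lower one, with a median difference of −0.05.

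The 3 highest score differences, toward stronger peaks with IL-4, were less than 2 times their standard errors. Downstream of Il6ra (chr3:89860013-89860271) a region stood at 80.2% and 52.1% with PBS and at 51.1% and 38.1% with IL-4 (0.61 ± 0.57, SE), and the score difference was −0.13 without iTreg+PBS replicate 1 and 0.19 when peaks were ranked by height. In intron 8 of Il12rb2 (chr6:67334802-67335424) the values were 48.2% and 81.6% against 42.1% and 51.7% (0.47 ± 0.27, SE). The score difference there was 0.12 without iTreg+PBS replicate 2 and 0.80 without iTreg+PBS replicate 1. In coding exon 10 of Il6ra (chr3:89870851-89871652), also a promoter of the gene Gm46811, the values were 29.2% and 64.6% against 24.7% and 33.4% (0.45 ± 0.29, SE). Here the difference was 0.07 without iTreg+PBS replicate 2, 0.80 without iTreg+PBS replicate 1 and 0.24 by height. Each of these 3 regions had an adjusted p of 1.000 in limma, and in the last pair iTreg+PBS replicate 2 was far weaker than the other libraries. The second region with an unadjusted p under 0.05 in limma, named after its values were seen, had its centre in exon 2 of Il6st. It stood at 51.9% and 69.1% with PBS and at 42.2% and 44.6% with IL-4 (0.40 ± 0.13, SE, limma adjusted p = 1.000). A start site of Il6st in the GENCODE M21 annotation, at chr13:112472599, lies inside this region. Of other regions named after their values were seen, those 6.12 kb upstream of Il21r (0.45 ± 0.21, SE), in intron 1 of Il12rb2 (0.43 ± 0.18, SE) and downstream of Il23r (0.40 ± 0.15, SE) also had differences of more than 2 times their standard errors, with scores that did not overlap and an adjusted p of 1.000 in limma. Ranked by height, these differences were 0.25, 0.00 and 0.39.

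**Figure D4:**
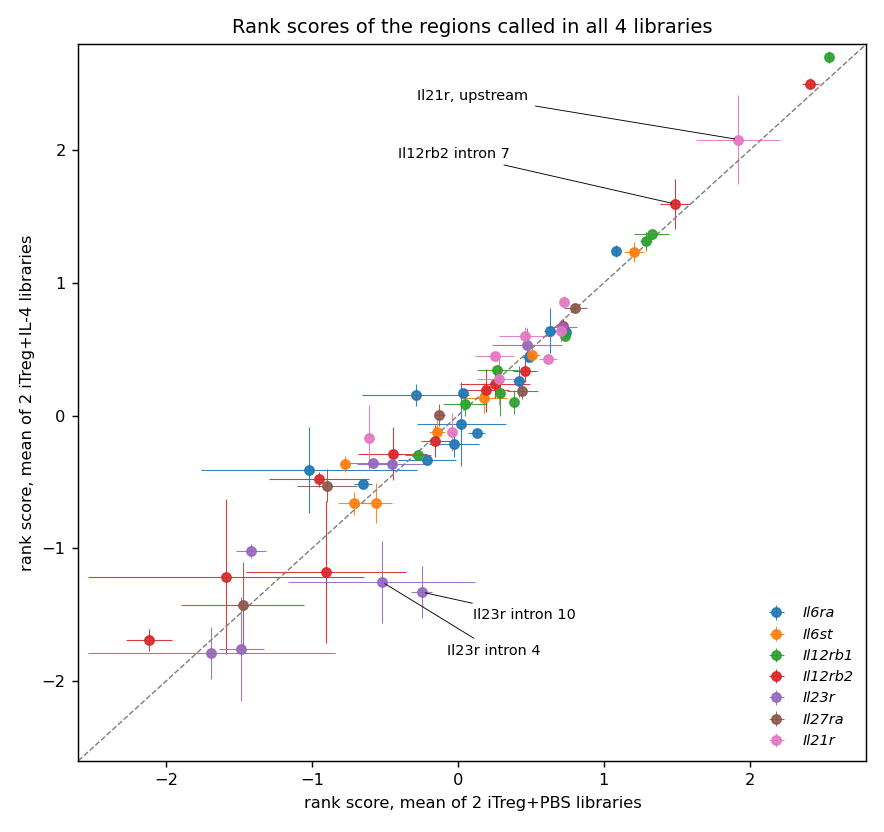
Rank scores of the 64 regions called in all 4 libraries, as the mean of the 2 iTreg+PBS libraries (x axis) and of the 2 iTreg+IL-4 libraries (y axis), coloured by locus, with bars spanning the 2 libraries and a dashed line of equality. Points near the line have like ranks in both conditions, and the Il23r intron 10 region lies furthest below it, by 1.08.

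One region was called in both IL-4 libraries and in neither PBS library, and 0 showed the reverse. Among all merged regions 2.60% were called only with IL-4 and 0.699% only without it. The region (chr13:112517272-112517523) lies 53.3 kb from the Il6st start and 4.53 kb from the 3′ end of Il31ra, the gene of the IL-31 receptor chain that neighbours Il6st. It was weak, at 56.2% and 77.1% with heights of 36 and 20 fragments, and 100% of its window is masked as repeats. The counts only with and only without IL-4 changed with each library left out: without iTreg+PBS replicate 1 they were 10 and 3, without iTreg+PBS replicate 2 they were 1 and 5, without iTreg+IL-4 replicate 1 they were 3 and 3, and without iTreg+IL-4 replicate 2 they were 9 and 0.

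Downstream of the receptors, the promoters of the kinases Jak1, Jak2 and Tyk2, of Stat3 and Stat4 and of the feedback inhibitor Socs3 were called in all 4 libraries, 6 of 6, and 0 rose and 0 fell past an adjusted p of 0.05 in limma. Stat3, the main transcription factor of IL-6 and IL-21, had the strongest of them at 0.465%, 0.749%, 0.479% and 0.605%. Socs3, which shuts off gp130 signalling, stood at 2.05%, 3.86%, 1.92% and 4.31%. At both genes the replicates numbered 2 were the weaker of each condition. Tyk2 lay at 3.16% to 5.56%, Jak1 at 3.70% to 5.88% and Jak2 at 16.1% to 19.4%. Stat4, which transmits IL-12, was the weakest of the 6 at 40.5%, 50.9%, 35.1% and 46.8%. Il2rg, the partner of Il21r, stood at 10.8%, 15.2%, 9.09% and 11.3%.

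Of the 5 other receptors related to Il6st (Lifr, Osmr, Il11ra1, Cntfr and Il31ra), 4 had a promoter peak in all 4 libraries and Osmr in 3, where 58.2% of protein-coding genes had one in all 4. These peaks were weak, with mean ranks of 66.8% for Lifr, 69.3% for Il11ra1, 54.4% for Cntfr and 45.5% for Il31ra. The promoters of the members had means of 7.67% (Il6st) to 26.8% (Il12rb1). The promoter of Il31ra stood at 43.9% and 78.0% with PBS and at 25.8% and 34.4% with IL-4, a score difference of 0.93 ± 0.28 (SE, limma adjusted p = 1.000), and the conditions did not overlap. It is given because its difference was the largest of the 4. Lifr also had a higher score with IL-4 (0.48 ± 0.21, SE), while Il11ra1 (−0.62 ± 0.36, SE) and Cntfr (−0.13 ± 0.33, SE) had a lower one. Of the 7 ligand genes (Il6, Il21, Il12a, Il12b, Il23a, Il27 and Ebi3), 5 had a promoter peak in all 4 libraries, Ebi3 in 3 and Il27 in none. The mean rank was 28.4% for Il21, 55.2% for Il23a, 63.4% for Il6, 66.5% for Il12b and 74.2% for Il12a. None of the genes in these lists passed an adjusted p of 0.05 in either direction.

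The STAT motif with a spacer of 4 bases, TTCNNNNGAA, was in 7 windows (6.93%, all windows 5.84%), the GATA motif AGATAA in 11 (10.9%, all windows 7.86%) and the ETS motif ACAGGAAG in 8 (7.92%, all windows 4.86%), counting both strands. Among the 64 shared regions they were in 3 (4.69%), 5 (7.81%) and 6 windows (9.38%), where the windows of all shared regions gave 5.27%, 7.14% and 4.84%.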

How the data were processed

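ATAC-seq was performed by the authors on 2 iTreg+PBS and 2 iTreg+IL-4 samples on the BGISEQ-500 platform, with reads mapped to mm10 and peaks called in each library. The submitters' processing notes name Bowtie2 2.2.5, MACS2 2.1.2 and bedtools 2.16.2. The lists have no column names, and the deposited values were taken, from their ranges, to be −log10 q-values and pileup signal heights. A correction for the transposase offset and the removal of duplicates are not given in the sources used here.

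Peaks were read with Python 3.11.15, pandas 2.3.3, numpy 2.4.6, scipy 1.17.1 and pysam 0.24.0, with positions counted from 1. Gene records and start sites came from RefSeq (GRCm38.p6). Regions sharing at least 1 base were merged. Where several peaks of a list met a region, the strongest was used. Differences between conditions were tested by exact permutation over libraries and, for rank scores, by limma 3.58.1 in R 4.3.3 with Benjamini-Hochberg adjustment. The scripts were tested on simulated data. Motifs were searched in windows of 200 bases. The number of libraries limits the precision, and p-values measure only the spread between these samples.

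The 7 genes, the gene lists and the rules were chosen with earlier results of these data known. Some listed genes are not reported here. Regions named are all promoter regions of the members, the 2 best-ranked shared distal regions of each locus, those called in 1 condition only, and the 3 highest and 3 lowest differences in rank score. Other regions that are named were picked after their values were seen. Alternatives kept the upper 50% of each list, used lists of equal length (56645 peaks), left out each library, changed the flank, overlap, promoter or annotation, ranked by height, or blocked on the replicate number.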

Additional observations from a re-analysis of the deposited data

How the results depend on the processing

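The 13 results were recomputed in 102 alternative values, of which 84 kept the direction or call of the result but not always its size (the median rank difference came to −0.788 among shared regions only, −1.92 by height, −1.76 with a reciprocal overlap of 50% and −1.48 with no flank, and the difference in bases to 2077 with lists of equal length), 11 moved and 7 reversed. With each list reduced to 56645 peaks the difference in peaks was −1.5, that in median rank 2.32, and 2 regions were called only without IL-4. With the upper 50% of each list 2 regions were called only with IL-4 and 1 only without, and with no flank and a flank of 50 kb 0 and 2 were called only with IL-4. When a library was left out, the difference ranged from −3.5 to 15.5 for peaks, −2583 to 10987 for bases and −11.6 to 4.1 for median rank, with 1 to 10 regions called only with IL-4, 0 to 5 only without, 0 to 0 regions past the threshold in limma and 6 to 6 loci with a promoter peak in all 4 libraries. The score difference of the region downstream of Il6ra ranged from −0.13 without iTreg+PBS replicate 1 to 1.28 without iTreg+PBS replicate 2. The cause was not tested. When the replicate number was a block, the differences were the same (6 peaks, 4202 bases, −4.22), each with an exact permutation p of 0.5, the smallest possible there. Deviations of the same-numbered libraries correlated (r = 0.393 over 47767 regions), but 2 numbers do not establish a pairing. Alternatives chosen after seeing the data gave 6.5 peaks, 4082 bases and 6 promoters with GENCODE M21, and −2.99 in median rank outside the promoters of other genes. Depth is unknown, so a region absent from a list was not called in it and need not be closed.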
